A study of Mus musculus with 14 samples.

Results

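The EGFP low progenitors of the mouse intestinal crypt were compared with and without Atg7. The 4 arrays labelled Atg7KO-Low were set against the 4 labelled WT-Low, by the group name in the sample titles, which takes 8 of the 14 samples of the series. Each difference is Atg7KO-Low minus WT-Low on the log2 scale, over the 15873 genes that passed a filter on low signal, out of 24675 probe sets with 1 gene symbol. Wild-type mice carried Lgr5-EGFP-IRES-CreERT2, which places EGFP and a tamoxifen-inducible Cre recombinase under Lgr5. Atg7KO mice carried the same allele together with Atg7(fl/fl). All mice, wild type included, received tamoxifen on 5 consecutive days, and they were killed 1 month later. Cells with low CD24 were then sorted into an EGFP high gate, named as stem cells in the labels, and an EGFP low gate, named as their transit amplifying progeny. Cre in this line acts where Lgr5 is expressed, so deletion starts in Lgr5-positive cells and is inherited by their progeny, and cells outside that lineage keep the gene. Single samples are named by group and title number, as in WT-Low-411. They came from individual mice, whose ages and sexes the labels do not give.

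Autophagy encloses cytoplasm in a double membrane, the autophagosome, and delivers it to the lysosome. Atg7 is the E1-like enzyme that activates ATG12 and the ATG8 family (LC3 and GABARAP proteins), and without it these proteins are not joined to their targets. Transit amplifying cells divide rapidly between the stem cells of the crypt base and the differentiated epithelium, which includes absorptive enterocytes and the secretory goblet, Paneth, enteroendocrine and tuft cells.

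Signal was read on 1 array per sample from 1 ng of amplified total RNA, so the number of arrays limits the precision and there is no read depth. Pairwise correlations were 0.951 to 0.965 among the knockout arrays and 0.945 to 0.978 among the wild-type arrays. WT-Low-411 stood apart on the first principal component of the 8 arrays, which held 27.3% of their variance, and had the narrowest spread of values among them (SD 1.90). Y-linked genes were detected on 1 of 4 knockout and 2 of 4 wild-type arrays. The epithelial markers Epcam, Cdh1, Vil1, Krt8 and Cdx2 were at or above the 40th percentile of every one of the 8 arrays, as were Lgr5, Olfm4, Ascl2, Smoc2 and Axin2 and the 4 cycling markers that matched. The same held for all 5 goblet and all 5 Paneth markers, whose median percentiles over the 8 arrays were 98.5 or higher. All 7 enterocyte and all 5 enteroendocrine markers were at or above the 40th percentile on every array too. Their median percentiles ran from 73.1 to 99.8 and from 70.3 to 99.8. Transcripts of these 4 differentiated cell types were thus present in the sorted samples as well. Of 4 tuft markers, Trpm5 and Avil were at or above the 40th percentile on all 8 arrays, Pou2f3 on 6 and Dclk1 on 0. Of 8 leukocyte markers, Ptprc and Cd3g were below the 40th percentile on all 8 arrays, Cd8a and Cd68 were at or above it on all 8, Itgae on 7, Cd3e on 3, and Cd79a and Csf1r on 1 each. Of 7 stromal and endothelial markers, Col3a1, Pdgfra and Kdr were below it on all 8 arrays, Col1a1, Vim and Pecam1 were at or above it on all 8, and Col1a2 on 6. The median percentile of Vim over the 8 arrays was 88.7, and its mean was 7.10 in the knockout and 7.60 in wild type. The part of leukocytes and stroma in the results was not tested. In such bulk samples, fewer cells of a type and less RNA per cell cannot be told apart.

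Atg7, the deleted gene, read 5.78, 6.06, 6.05 and 5.65 (log2 value) on the knockout arrays and 6.92, 6.77, 7.49 and 6.46 on the wild-type arrays. All 4 knockout arrays were below all 4 wild-type arrays. The difference was -1.02 (SE 0.19), and limma over all genes gave an adjusted p of 0.166 with the Benjamini-Hochberg method, so Atg7 did not pass that test. An exact two-sided permutation test over the 8 samples gave p = 0.0286, the smallest that its 70 arrangements allow. The exons between the loxP sites are not stated in the sources used here, and a probe set can hold probes outside the deleted part, so the remaining signal does not measure the remaining share of intact alleles.

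Rnf5 rose in the knockout and was the 1 gene that passed among the 15873 tested (0.00630%). It encodes a membrane-anchored ubiquitin ligase of the endoplasmic reticulum that takes part in the degradation of misfolded membrane proteins and is known to act on the autophagy protease ATG4B. Its log2 values were 6.01, 6.52, 6.49 and 6.33 on the knockout arrays and 5.12, 4.74, 4.50 and 4.09 on the wild-type arrays. The lowest knockout array lay well above the highest wild-type array. The difference of 1.72 (SE 0.21) corresponds to a 3.30-fold higher signal, with an adjusted p of 0.013 by limma. The exact permutation test over the 8 samples gave p = 0.0286, as it would for any gene without overlap. The call did not hold when the 8 EGFP low arrays were fitted without the other 6 (adjusted p = 0.233 by limma), nor without Atg7KO-Low-386, WT-Low-407, Atg7KO-Low-353 or Atg7KO-Low-387 (adjusted p = 0.0555 to 0.0881), while the difference stayed between 1.55 and 1.89 whichever sample was left out.

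In the EGFP high gate Rnf5 differed the other way, by -0.45, and the difference between the gates was 2.18 (adjusted p = 0.059 by limma, not passed). That difference was called with the replicate block on title numbers, with array weights, with the strict filter and without WT-Low-341. Of the 20 genes nearest to Rnf5 on chromosome 17, 10 on each side, 0 had groups that did not overlap, and their differences ran from -0.41 to 0.43. Ppt2, a lysosomal thioesterase gene among them, was the 1 neighbour at an unadjusted p under 0.05, at -0.40 (SE 0.18), or -0.25 without WT-Low-341. Around Atg7 on chromosome 6, 2 of the 20 neighbours had groups that did not overlap, against 3.40% of all genes. These were Brk1, a subunit of the WAVE actin regulator, at 0.90 (SE 0.34), or 0.50 without WT-Low-411, and Vhl, the substrate receptor that marks hypoxia-inducible factors for degradation, at 0.63 (SE 0.18). At an unadjusted p under 0.05 there were 3 of the 20, where 7.26% of all genes were. They were Brk1, Vhl and Mbd4, the last at 0.41 (SE 0.15) with overlapping groups.

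**Figure D1:**
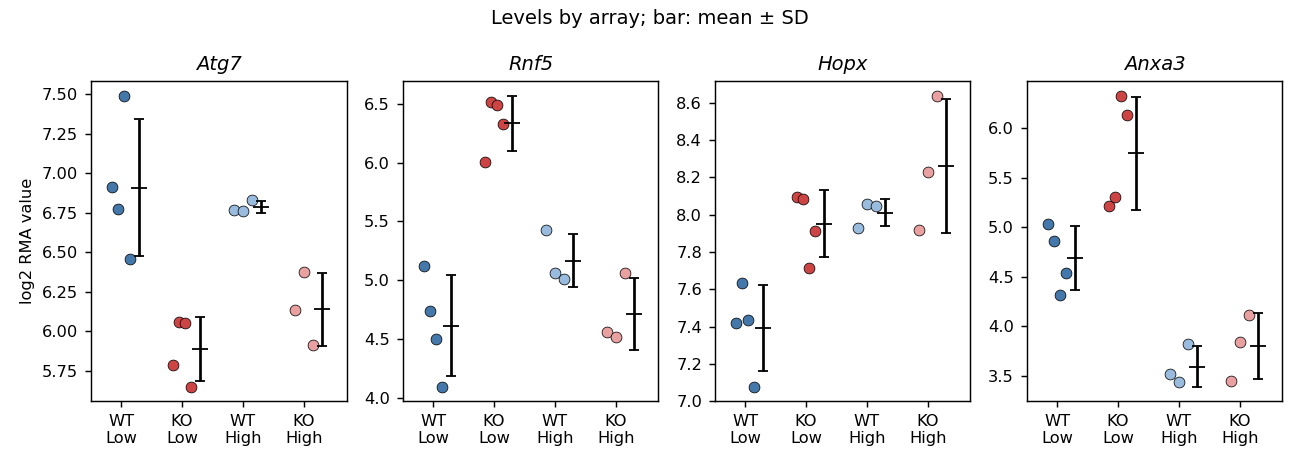
Log2 RMA value of Atg7, Rnf5, Hopx and Anxa3 on each array, by genotype and EGFP gate, with the group mean and SD as a bar beside the points (4 arrays per EGFP low group, 3 per EGFP high group). In the EGFP low gate the knockout and wild-type points do not overlap for any of the 4 genes, with Atg7 lower and the other genes higher in the knockout.

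Beyond Rnf5 no gene-wise difference passed the limma test over all genes. At an unadjusted p under 0.05, 1152 genes (7.26%) stood out, 612 higher (3.86%) and 540 lower (3.40%) in the knockout. If no gene differed, about 794 would be expected. The 4 knockout arrays lay entirely above the 4 wild-type arrays for 271 genes (1.71%) and entirely below them for 269 (1.69%). Either way this held for 540 genes (3.40%). Random labels would separate a share of about 0.0286 of genes, so lack of overlap alone says little about a single gene. The median difference of all genes was 0.00, and 50.3% of the genes had a positive difference. Genes in the top 1 of 5 equal classes of mean level leaned upward, with a median of 0.06 and 61.0% positive. In that class 6.80% were higher at an unadjusted p under 0.05, and 3.46% had all knockout arrays above all wild-type arrays. Gene groups of high level are to be read against these shares.

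Hopx, a homeodomain-only protein found in reserve stem cells and in differentiating crypt cells, read 8.09, 8.09, 7.72 and 7.91 in the knockout and 7.42, 7.63, 7.43 and 7.08 in wild type. Every knockout array was above every wild-type array. The difference was 0.56 (SE 0.17), with an adjusted p of 0.515 by limma, so it was not called over all genes. The exact permutation test over the 8 samples gave p = 0.0286, as it would for every gene without overlap (3.40% of all genes). The genes given that test were chosen with earlier results known, so its p is no support of its own for Hopx. Anxa3, a calcium-dependent phospholipid-binding protein of the regenerating epithelium, read 5.22, 5.30, 6.33 and 6.14 against 5.04, 4.86, 4.32 and 4.54, again without overlap. Its difference was 1.06 (SE 0.25, adjusted p = 0.461 by limma).

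Among the genes with the largest differences whose groups did not overlap, none but Rnf5 passed over all genes by limma, which left 161 higher and 144 lower genes at an unadjusted p under 0.05 to rank. The largest positive differences included the following genes. Ap2m1, the cargo-binding medium chain of the AP-2 clathrin adaptor, was at 7.16 to 7.74 on 3 knockout arrays and 6.75 on Atg7KO-Low-356, against 5.00 to 6.74 in wild type, so that the groups nearly touched (difference 1.44, SE 0.47). H2-DMb1, a chain of the chaperone that loads peptides onto MHC class II, read 7.05, 7.34, 8.42 and 8.42 against 6.72, 6.20, 6.55 and 6.11 (difference 1.41, SE 0.43). In the EGFP high gate H2-DMb1 differed by -1.45.

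Rmrp, the RNA of the RNase MRP particle that cuts ribosomal precursor RNA, read 9.41, 9.53, 9.50 and 9.30 in the knockout and 8.41, 8.44, 8.51 and 7.12 in wild type. The 4 knockout arrays lay within a narrow band above all wild-type arrays, of which WT-Low-411 was far below the others. The difference was 1.31 (SE 0.25, adjusted p = 0.166 by limma). Snrpf, a core Sm protein of spliceosomal particles, differed by 1.07 (SE 0.23), Zmat5, a protein of the minor spliceosome, by 0.97 (SE 0.25), and Rprd1a, a regulator of RNA polymerase II phosphorylation, by 1.08 (SE 0.25). The other genes on the higher side were Mrps36-ps1 (1.47), Jmjd7 (1.36, or 0.88 without WT-Low-341), Prrg2 (1.19), Tmem60 (1.02), Ssna1 (0.99), Ceacam18 (0.97) and Ogfr (0.96). Mrps36-ps1 is a pseudogene of Mrps36, which itself differed by 1.04 (SE 0.27) with overlapping groups, and a signal from either copy cannot be told apart on short probes.

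At the lower end stood Tdg-ps2, a pseudogene of the thymine DNA glycosylase Tdg, at -1.44 (SE 0.25). It read 4.55, 4.87, 4.43 and 4.50 in the knockout and 6.03, 6.57, 5.17 and 6.35 in wild type, without overlap, and it differed by -1.81 in the EGFP high gate too. Left without WT-Low-409, the wild-type array nearest to the knockout, it was called at -1.73 (adjusted p = 0.00543 by limma), against an adjusted p of 0.166 with all arrays. Its adjusted p over the other alternatives ran up to 0.789. Ang4, an antimicrobial ribonuclease of Paneth cells, read 9.12, 9.73, 9.40 and 8.26 against 10.07, 10.12, 10.83 and 11.21, a difference of -1.43 (SE 0.35).

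Ptprn2, a protein of dense-core secretory granules, was lower by a difference of -1.27 (SE 0.28), and 2 of its knockout arrays, at 6.06 and 6.33, were far below the other 2, at 7.45 and 7.46. Nemp1, a protein of the inner nuclear membrane, differed by -1.06 (SE 0.19) and Casp4, an inflammatory caspase that senses lipopolysaccharide, by -0.80 (SE 0.23). Hjurp, the chaperone of the centromeric histone, differed by -0.73 (SE 0.17) and Mcm9, a helicase of recombination repair, by -0.73 (SE 0.20). Btrc, the substrate receptor of an SCF ubiquitin ligase that targets beta-catenin, differed by -0.71 (SE 0.18). Gata6os (-0.84), Hsdl1 (-0.82), Ccdc68 (-0.81), Olfr856-ps1 (-0.81), Abhd1 (-0.76) and Map11 (-0.75) completed the list, with no overlap in log2 value between the groups in any of them. Olfr856-ps1 was of low signal, at percentiles of 13.6 to 21.0 on the knockout arrays and 19.8 on WT-Low-411, so by percentile its groups overlapped. Gata6os overlapped by percentile too (79.3 on Atg7KO-Low-353, 78.8 on WT-Low-341). Among the higher genes above, so did Ap2m1 (79.6 on Atg7KO-Low-356, 81.4 on WT-Low-411) and Rprd1a (75.9 on Atg7KO-Low-386, 76.8 on WT-Low-411).

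**Figure D2:**
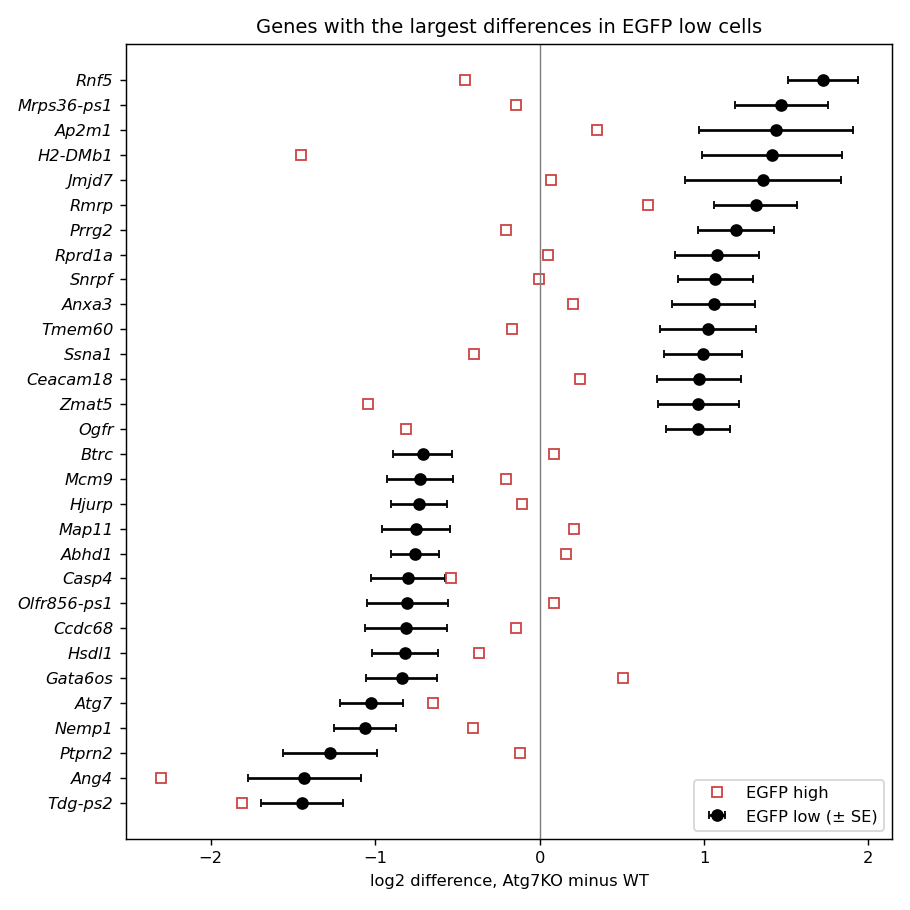
Log2 difference Atg7KO minus WT for the 15 genes with the largest positive and the 15 with the largest negative difference in EGFP low cells, among genes whose 4 knockout and 4 wild-type arrays do not overlap. Filled points with SE bars are EGFP low cells and open squares are EGFP high cells, where for instance Rnf5 (-0.45) and H2-DMb1 (-1.45) lie on the other side of 0 while Tdg-ps2 (-1.81) and Ang4 (-2.30) lie on the same side.

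Genes whose groups overlapped were outside this ranking, whatever the size of their difference. One of them, the replication-dependent histone gene H2ac4, named after its values were seen, read 8.47, 7.58, 6.65 and 8.05 in the knockout and 6.85, 5.08, 5.73 and 2.81 in wild type. The knockout array at 6.65 was below the wild-type array at 6.85, and WT-Low-411 was the lowest. The difference of 2.57 (SE 0.62) was not called (adjusted p = 0.461 by limma). Over the 26 core histone cluster genes tested the median was 0.14, with 16 positive and 3 higher at an unadjusted p under 0.05 (3.86% of all genes were). The median was 0.04 without Atg7KO-Low-356, 0.08 without Atg7KO-Low-353 and 0.06 without WT-Low-411, and the count of 3 was 1 without WT-Low-409 and 2 without WT-Low-341 or WT-Low-411.

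A broad pattern lay in the genes of the mitochondrial ribosome, which translates the membrane subunits of the respiratory chain encoded in mitochondrial DNA. Of 75 genes with symbols of this family, 71 had a positive difference, and the median was 0.31 against 0.00 for all genes. None was called over all genes by limma, while 21 (28.0%) were higher and 0 lower at an unadjusted p under 0.05, where 3.86% of all genes were higher. The 4 knockout arrays lay above the 4 wild-type arrays for 11 of them (14.7%, against 1.71% of all genes). Of the 48 in that top class of level, 45 were positive, where 61.0% of all genes of the class were.

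The mean log2 level of the 75 genes was 7.87, 7.78, 7.81 and 7.76 on the knockout arrays and 7.67, 7.58, 7.27 and 7.40 on the wild-type arrays. The knockout arrays lay close together and above every wild-type array, while WT-Low-409 and WT-Low-411 were the lowest. These were also the arrays with the highest mean of the Paneth cell markers, 10.18 and 10.65 against 8.97 to 9.82 on the other 6, and the part of that in the result was not tested. Without WT-Low-411, 72 of the 75 were positive with a median of 0.32, and 16 were higher at an unadjusted p under 0.05. Without WT-Low-409 these values were 64, 0.24 and 13.

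The single genes named here were picked from the family by their values, so they illustrate the pattern and add no support to it. Mrpl36, a protein of the large subunit, read 7.71, 7.33, 7.82 and 7.62 against 7.21, 6.85, 7.14 and 6.74 (difference 0.63, SE 0.16), without overlap. Mrpl43, another large-subunit protein, read 6.64, 6.44, 6.83 and 6.85 against 6.28, 6.02, 6.08 and 5.83 (difference 0.64, SE 0.16). Mrpl20, also of the large subunit, read 7.08, 7.02, 6.85 and 6.73 against 6.63, 6.18, 5.79 and 6.56 (difference 0.63, SE 0.21). In all 3 genes every knockout array was above every wild-type array in log2 value. By percentile on the array, Mrpl20 on Atg7KO-Low-386 (79.1) was just below WT-Low-411 (79.2). Mrpl19 (0.51, SE 0.14) and the small-subunit gene Mrps28 (0.35, SE 0.13) had groups that did not overlap either.

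The promoters of Mrpl36, Mrpl43 and Mrpl20 are shown because they had the smallest p in the family among genes without overlap whose promoter was listed. Genes of a single chromosome were left out of this choice. Each is the 300 bases around the RefSeq start, mostly before it, on assembly GRCm38.p6, 5′ to 3′ on the gene's own strand. They lie at chr13:73330759-73331058 (plus strand), chr19:45006393-45006692 (minus strand) and chr4:155802628-155802927 (plus strand). Capitals mark matches, on either strand, to 4 searched motifs, namely the palindromic core bound by NRF1 (a regulator of nuclear genes for mitochondria), CCGGAAG (an ETS core), CCAAT and CACGTG.
Mrpl36: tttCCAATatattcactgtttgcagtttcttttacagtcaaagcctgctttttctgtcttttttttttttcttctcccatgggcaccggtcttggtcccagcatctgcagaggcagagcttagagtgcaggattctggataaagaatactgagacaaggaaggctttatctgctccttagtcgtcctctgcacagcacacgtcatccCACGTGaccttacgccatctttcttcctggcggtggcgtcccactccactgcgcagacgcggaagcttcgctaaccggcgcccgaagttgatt
Mrpl43: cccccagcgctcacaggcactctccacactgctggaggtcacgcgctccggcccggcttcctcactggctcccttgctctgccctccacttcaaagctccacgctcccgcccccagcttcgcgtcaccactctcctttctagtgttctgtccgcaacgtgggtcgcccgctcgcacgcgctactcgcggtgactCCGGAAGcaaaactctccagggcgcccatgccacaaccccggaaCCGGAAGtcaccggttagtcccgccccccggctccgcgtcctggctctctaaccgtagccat
Mrpl20: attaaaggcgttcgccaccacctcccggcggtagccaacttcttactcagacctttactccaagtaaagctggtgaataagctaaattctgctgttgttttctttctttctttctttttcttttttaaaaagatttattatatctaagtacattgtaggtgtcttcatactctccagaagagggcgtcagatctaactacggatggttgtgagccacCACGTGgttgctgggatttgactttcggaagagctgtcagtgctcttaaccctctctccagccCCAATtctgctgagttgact
Over the 66 family members with a listed promoter, 23 (34.8%) held the ETS core, against 15.6% of the 12119 promoters of genes tested and 9.12% of all 27025. The NRF1 core was in 13 of the 66 (19.7%), against 8.75% and 4.78%. CCAAT was in 27 (40.9%, against 38.5% and 37.9%) and CACGTG in 4 (6.06%, against 9.60% and 7.24%). A match of letters describes the window and is not a measured site.

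The nuclear genes of the respiratory chain leaned the same way with smaller differences. Of 34 complex I genes 31 were positive (median 0.19), of 7 complex III genes 7 (0.27), of 15 complex IV genes 15 (0.23) and of 14 complex V genes 14 (0.22). At an unadjusted p under 0.05, 4, 3, 2 and 0 of them were higher and 0 lower. The share higher was 3.86% over all genes and 6.80% in the top class of level, which held 28, 7, 8 and 12 of them. The median of complex IV was 0.13 without WT-Low-409, and that of complex V was 0.12 without WT-Low-409 and 0.13 without Atg7KO-Low-353. Without WT-Low-411, 12 of the 15 complex IV genes and 11 of the 14 complex V genes were positive. Cyclic loess normalization lowered the medians of complexes III, IV and V to 0.16, 0.12 and 0.11, and quantile normalization again lowered that of complex IV to 0.15. The counts at an unadjusted p under 0.05 ran from 2 to 7, 1 to 3, 1 to 3 and 0 to 2 for complexes I, III, IV and V as single samples were left out. Ndufa12, an accessory subunit of NADH dehydrogenase, read 11.75, 11.48, 11.41 and 11.41 against 11.04, 10.84, 10.59 and 11.10, without overlap, and differed by 0.62 (SE 0.14). Uqcrq of complex III (0.49, SE 0.16) and Cox6b1 (0.39, SE 0.13) and Cox8a (0.34, SE 0.14, or 0.22 with cyclic loess) of cytochrome oxidase also had groups that did not overlap in log2 value. By percentile on the array, Uqcrq on Atg7KO-Low-387 (98.30) was just below WT-Low-407 (98.34). Cox6b1 on Atg7KO-Low-386 was level by percentile with WT-Low-341 (98.8 on each).

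**Figure D3:**
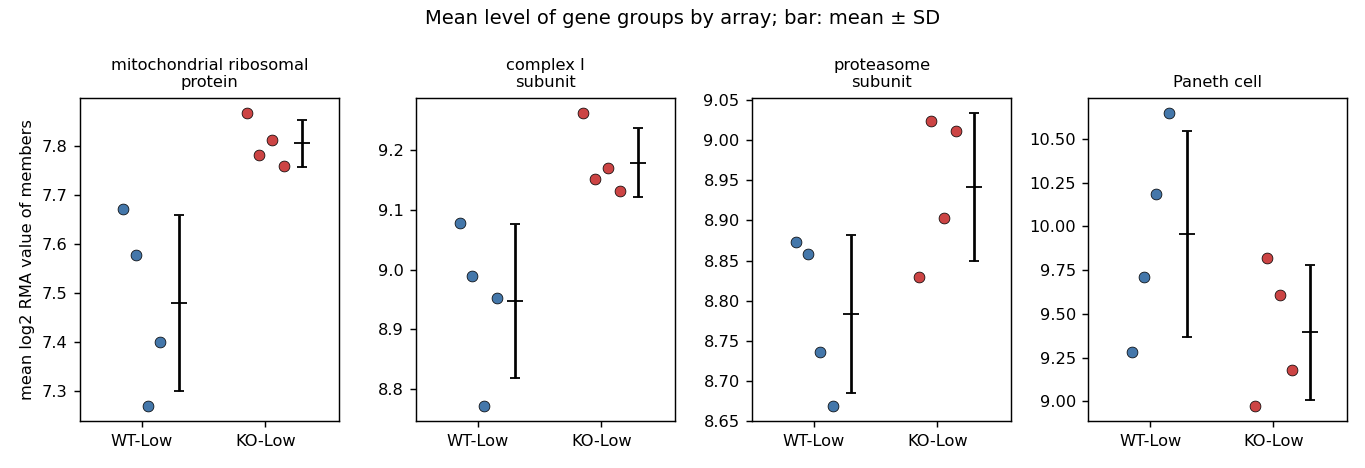
Mean log2 RMA value over the tested members of 4 gene groups on each EGFP low array, with the group mean and SD (n = 4) beside the points. For the mitochondrial ribosomal protein genes every knockout array (7.76 to 7.87) lies above every wild-type array (7.27 to 7.67). For the complex I subunit genes the same holds, while the proteasome and Paneth cell groups overlap.

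Cytosolic ribosomal protein genes had 43 of 54 positive differences with a median of 0.20. At an unadjusted p under 0.05, 13 of the 54 were higher (24.1%, against 3.86% of all genes) and 1 lower (1.85%, against 3.40%). Rpl14 of the large subunit differed by 0.61 (SE 0.19) and Rps15 of the small subunit by 0.75 (SE 0.24), or 0.50 without Atg7KO-Low-386. The count of 13 dropped to 6 without Atg7KO-Low-356, 7 without Atg7KO-Low-353, 8 without WT-Low-407 and 7 without WT-Low-409. Many of these genes have near-identical processed pseudogenes, from which the array's probes may not separate them. Of 34 proteasome subunit genes 31 were in the top class of level, where 61.0% of all genes were positive. Of the 34, 30 were positive (median 0.18). At an unadjusted p under 0.05, 2 were higher (5.88%, against 3.86% of all genes and 6.80% of that class). That count was 0 without Atg7KO-Low-353 or WT-Low-409 and 1 without Atg7KO-Low-386, and 4 without WT-Low-341. The median was 0.11 without WT-Low-411, 0.09 after quantile normalization again and 0.10 after cyclic loess. The 2 genes were Psmb1 of the 20S core, at 0.36 (SE 0.14), and Psmd3 of the 19S cap, at 0.48 (SE 0.20), or 0.31 without WT-Low-411.

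**Figure D4:**
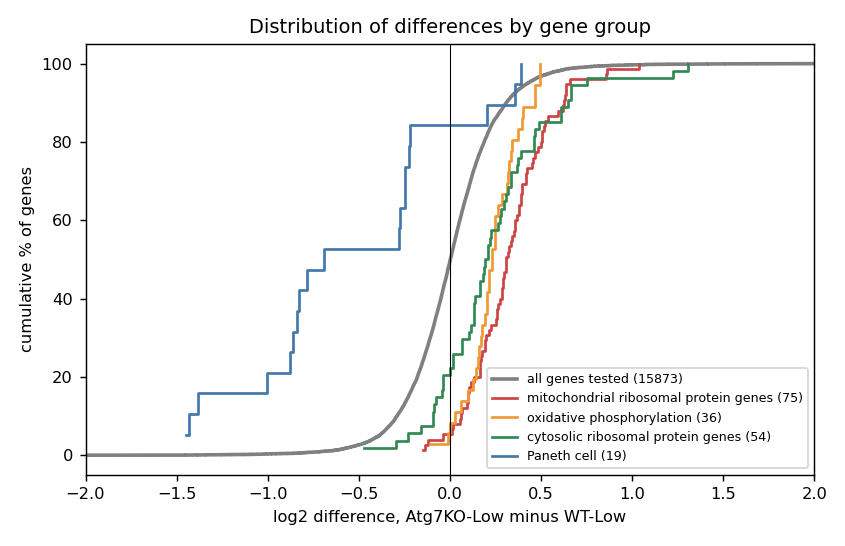
Cumulative percentage of genes by log2 difference Atg7KO-Low minus WT-Low, for all 15873 genes tested and for 4 gene groups. The curve of the 75 mitochondrial ribosomal protein genes lies to the right of that of all genes (median 0.31 against 0.00), and the curve of the 19 Paneth cell markers lies to the left (median -0.69, or -0.16 without WT-Low-411).

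The other genes of the conjugation step in which Atg7 acts lay near 0. Of the 15 genes of ATG8 and ATG12 conjugation, which do not include Atg7 itself, 10 were positive with a median of 0.04, and 0 stood out at an unadjusted p under 0.05. Atg3, the E2 enzyme that passes LC3 to lipid, differed by 0.16 (SE 0.12), Map1lc3b, which encodes LC3B, by 0.24 (SE 0.17), and the protease gene Atg4d by 0.30 (SE 0.20). Map1lc3b was at 0.12 without Atg7KO-Low-387 and Atg4d at 0.10 without Atg7KO-Low-386, and Atg3 was at 0.07 after quantile normalization again. Among 22 initiation and nucleation genes the median was -0.02, and Atg2b, a lipid transfer protein, was the 1 gene lower at an unadjusted p under 0.05, at -0.34 (SE 0.16). The medians of both lists were near 0 and changed sign as single samples were left out, to -0.01 for conjugation without Atg7KO-Low-353 and up to 0.04 for initiation without WT-Low-409.

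Of 18 selective autophagy receptors, 2 were higher at an unadjusted p under 0.05 (11.1%, against 3.86% of all genes), and 1 without Atg7KO-Low-386 or WT-Low-411. These were Tollip, a ubiquitin-binding adaptor, at 0.47 (SE 0.16), and Phb2, a receptor of the inner mitochondrial membrane, at 0.35 (SE 0.15), or 0.22 without WT-Low-411. Sqstm1, the p62 receptor whose protein accumulates when autophagy stops, had an RNA difference of 0.06 (SE 0.12), with overlapping groups. The 30 lysosomal genes had a median of 0.01, with Ctss, a cathepsin, at 0.35 (SE 0.14), Man2b1, a mannosidase, at -0.39 (SE 0.15), and Atp6ap1, of the proton pump, at -0.47 (SE 0.20).

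The pathway of Rnf5 as a whole lay near 0. The 42 genes of ER-associated degradation had a median of 0.06, 23 were positive, and at an unadjusted p under 0.05 there were 3 higher (7.14%, against 3.86% of all genes) and 2 lower, Rnf5 included. The median was -0.02 without WT-Low-411 and -0.01 after quantile normalization again. Ufd1, the cofactor that helps VCP pull substrates from the membrane, differed by 0.40 (SE 0.15), Edem1, a lectin of glycoprotein disposal, by -0.45 (SE 0.15), and Rnf121, another ligase of the endoplasmic reticulum, by -0.35 (SE 0.15). Rnf185, the closest relative of Rnf5, differed by -0.23 (SE 0.16), or -0.13 without Atg7KO-Low-356.

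Genes of the unfolded protein response leaned lower, with 24 of 30 negative and a median of -0.10. That count ran from 18 without WT-Low-409 to 27 without Atg7KO-Low-353. The median ran from -0.04 without WT-Low-409 to -0.18 without WT-Low-411. Ern1, which encodes the sensor IRE1, read 6.80, 7.00, 6.65 and 7.09 against 7.67, 7.45, 7.62 and 7.07 (difference -0.57, SE 0.18). The last wild-type array, WT-Low-411, lay within the knockout range. Eif2ak3, which encodes the sensor PERK, differed the other way, by 0.48 (SE 0.19), or 0.27 without Atg7KO-Low-387.

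The crypt base stem cell markers Lgr5, Olfm4 and Ascl2 were not called, which does not show that they were equal. Lgr5 differed by 0.28 (SE 0.30) and by -0.00 without WT-Low-411, Olfm4 by 0.03 (SE 0.20) and Ascl2 by 0.00 (SE 0.18). The signs of Olfm4 and Ascl2 depended on the scaling or the covariates. Over 29 Lgr5 stem cell markers the median was 0.11, with 21 positive and 1 higher at an unadjusted p under 0.05 (3.45%, against 3.86% of all genes). The median was 0.02 without WT-Low-411, with 15 positive, 0.04 without Atg7KO-Low-353, and 0.01 with array weights. The 1 gene was Aqp4, a water channel, at 0.68 (SE 0.24), or 0.39 without WT-Low-411. Of 18 reserve and regenerative markers 10 were positive, with a median of 0.05 that was -0.01 without WT-Low-411. At an unadjusted p under 0.05, Anxa3 and Hopx were higher (11.1%, against 3.86% of all genes) and 1 was lower (5.56%, against 3.40%). The lower one was Prox1, a transcription factor of enteroendocrine and tuft-like reserve cells, at -0.76 (SE 0.28), or -0.47 without Atg7KO-Low-356. Hes1, the Notch effector, differed by 0.49 (SE 0.16), and Myc, a Wnt target, by 0.35 (SE 0.12) with no overlap in log2 value. By percentile, Myc on Atg7KO-Low-386 (96.6) was just below WT-Low-411 (96.9).

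Most markers of secretory cells had negative differences, by sizes that depended on single samples. Of 19 Paneth cell markers 16 were negative, with a median of -0.69, and 3 were lower at an unadjusted p under 0.05 (540 of all genes were, 3.40%), a count that was 2 to 6 as single samples were left out. These were Ang4, Mptx1, a pentraxin, at -0.83 (SE 0.36), and Pnliprp2, a lipase, at -1.45 (SE 0.41). The mean of the markers was 8.97, 9.82, 9.61 and 9.18 in the knockout and 9.28, 9.71, 10.18 and 10.65 in wild type. The groups overlapped, WT-Low-411 was the highest, and without it the median was -0.16. Without Atg7KO-Low-356 the median was -0.40. All 13 alpha-defensin genes were negative, with a median of -0.46, which was -0.14 without WT-Low-411 and -0.29 without Atg7KO-Low-386, and 0 stood out at an unadjusted p under 0.05. Defensin genes are near-identical copies whose probes may cross-hybridise.

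Of 20 goblet cell markers 15 were negative, with a median of -0.16 that was -0.02 without WT-Low-409 and -0.05 without Atg7KO-Low-356. Of 26 enteroendocrine markers 19 were negative, with a median of -0.12 that ran from -0.36 without WT-Low-341 to 0.11 without Atg7KO-Low-356, where 10 were negative. Pax6, a transcription factor of hormone-producing cells, differed by -0.55 (SE 0.18) with no overlap between the groups. Of 11 tuft cell markers 8 were negative (median -0.06). Without WT-Low-411 the median was 0.03, with 5 negative, and it was 0.01 with array weights. Pou2f3, the factor that specifies tuft cells, was at -0.96 (SE 0.36), or -0.60 without WT-Low-411. The 27 enterocyte markers had a median of 0.05, which ran from -0.05 without Atg7KO-Low-387 to 0.24 without Atg7KO-Low-353.

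Detoxifying enzymes leaned higher. Of 25 antioxidant enzymes outside the NRF2 list 19 were positive, with a median of 0.20, and 4 were higher (16.0%, against 3.86% of all genes) and 1 lower (4.00%, against 3.40%) at an unadjusted p under 0.05. The median was 0.11 without Atg7KO-Low-356 and 0.13 after cyclic loess, and the count of 4 was 2 without WT-Low-411. Glrx5, a mitochondrial glutaredoxin of iron-sulfur cluster assembly, read 9.01, 9.11, 9.22 and 8.99 against 8.54, 8.43, 8.52 and 8.13 (difference 0.68, SE 0.18), and Prdx4, a peroxiredoxin of the endoplasmic reticulum, read 7.16, 7.48, 7.87 and 7.04 against 6.81, 6.90, 6.35 and 6.77 (difference 0.68, SE 0.20). Neither gene's groups overlapped. Pxdn, a secreted peroxidase, was the lower one, at -0.39 (SE 0.17). Of 18 glutathione transferase genes 16 were positive, with a median of 0.32 that was 0.14 without WT-Low-411 and 0.19 without Atg7KO-Low-386. Gstm5 differed by 0.74 (SE 0.18), Gstm3 by 0.77 (SE 0.31, or 0.49 without WT-Low-411) and Gstm2 by 0.60 (SE 0.24), and the Gstm genes are close copies that short probes may not separate. NRF2 targets had a median of 0.12 that was 0.01 without WT-Low-411.

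Immune genes of the epithelium leaned higher with 0 or few members standing out. Of 31 interferon-stimulated genes 24 were positive (median 0.21), of 22 genes of MHC class I presentation 17 (0.15) and of 11 of MHC class II 9 (0.14). At an unadjusted p under 0.05, 0, 0 and 2 of them were higher, against 3.86% of all genes. The interferon count was 6 without Atg7KO-Low-356 and 7 without WT-Low-411, and the interferon median ran from 0.14 without Atg7KO-Low-387 to 0.34 without Atg7KO-Low-356. The class II median ran from 0.08 without WT-Low-407 to 0.39 without Atg7KO-Low-356, and 6 of the 11 were positive without Atg7KO-Low-387 or Atg7KO-Low-386. Irgm1, an interferon-inducible GTPase, differed by 0.48 (SE 0.23) and H2-T23, a nonclassical class I gene, by 0.57 (SE 0.27), or 0.33 without Atg7KO-Low-387. In the leukocyte list, 10 of 16 were positive with a median of 0.01, while Gzmb, granzyme B of cytotoxic lymphocytes, differed by 0.77 (SE 0.28), and its part in the interferon and MHC values was not tested.

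Cell cycle and damage genes had small medians, though most S phase genes were positive. S phase genes had a median of 0.09 (25 of 33 positive, 75.8%, against 50.3% of all genes) and G2 and M phase genes 0.02 (18 of 34). The S phase median ran from 0.03 without WT-Low-411 to 0.19 without Atg7KO-Low-387, and the G2 and M phase median from -0.04 without WT-Low-411 to 0.10 without WT-Low-407. Mki67, the proliferation marker, differed by -0.27 (SE 0.14), or -0.16 without Atg7KO-Low-387, and Cdc20, an activator of the anaphase-promoting complex, by 0.46 (SE 0.18). The 22 DNA damage checkpoint targets had a median of 0.03. Cdkn1a, the CDK inhibitor p21, differed by -0.01 (SE 0.21), with a sign that depended on the scaling. Among apoptosis regulators, Diablo, which is released from mitochondria and frees caspases from their inhibitors, read 8.61, 8.41, 8.68 and 8.56 against 8.25, 7.86, 7.53 and 7.88, without overlap (difference 0.68, SE 0.15). Bcl2, the anti-apoptotic founder of its family, differed by -0.64 (SE 0.23) with overlapping groups.

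**Figure D5:**
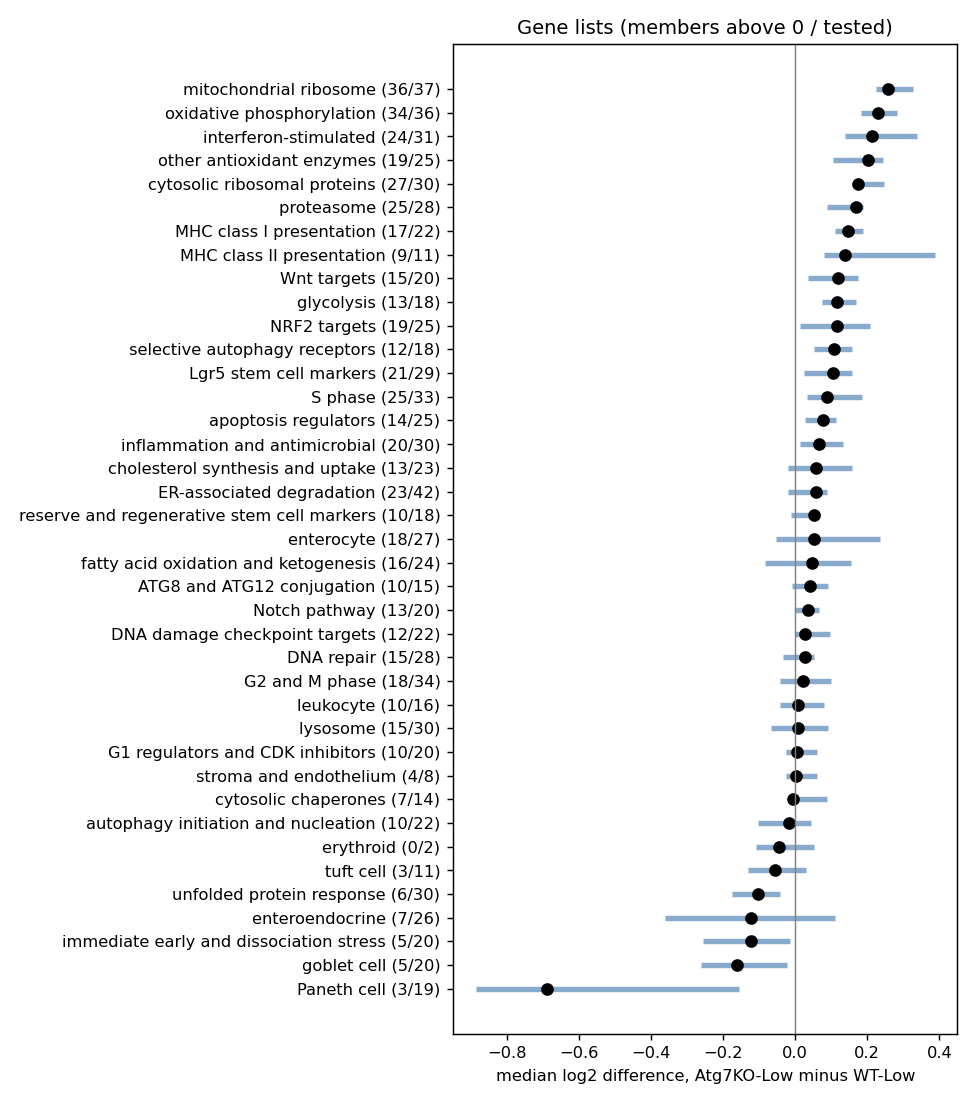
Median log2 difference Atg7KO-Low minus WT-Low of 39 gene lists (points), with the range of that median as each of the 8 samples is left out in turn (bars), and the number of members above 0 of those tested in brackets. The mitochondrial ribosome list is highest (36 of 37 above 0) and the Paneth cell list lowest (3 of 19), the latter with the widest bar, which reaches -0.16.

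Set beside the EGFP high gate, which has its own 3 knockout and 3 wild-type arrays, the mitochondrial ribosomal protein genes had medians of opposite sign. There 17 of the 75 were positive, with a median of -0.29, against 71 and 0.31 in EGFP low cells. Their mean level in the EGFP high gate was 7.24, 7.33 and 7.54 on the knockout arrays and 7.39, 7.85 and 7.66 on the wild-type arrays, so the groups overlapped. A negative median in that gate was not particular to this family. It was -0.44 for S phase genes (4 of 33 positive) and -0.47 for G2 and M phase genes (1 of 34). Complex I genes had 0.04 (19 of 34) and cytosolic ribosomal protein genes 0.07 (31 of 54). The share of all genes positive in the EGFP high gate is not given here. The difference between the gates had an unadjusted p under 0.05 and a positive sign for 34 of the 75, where 1347 of all genes (8.49%) did, and a negative sign for 0 (5.53% of all genes). For the proteasome subunit genes these counts were 16 of 34 and 0, with 3 positive and a median of -0.35 in EGFP high cells. The counts were not set against genes of like level. Among the arrays used are the 2 of narrowest spread, WT-Low-411 and Atg7KO-High-356, and their part in the counts was not tested. The title numbers of Atg7KO-Low-356, Atg7KO-Low-386 and WT-Low-411 recur among the EGFP high samples, so these may come from the same mice. The gene with a called difference between the gates was Gm12292, a predicted gene, which differed by -0.33 (SE 0.14) here and by 2.01 in the EGFP high gate (difference -2.33, adjusted p = 0.00039 by limma).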

How the data were processed

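The authors deposited a log2 value for each probe set on each array. Per the submitters' processing notes they used RMA in Affymetrix Expression Console. RMA subtracts background, quantile normalizes and summarises probes, and it can narrow large differences. No version is given in the sources used here. Of 25429 probe sets, 24675 had 1 symbol in the platform annotation. The other 754, and 72 of 1044 gene list entries that matched no symbol, are not analysed here.

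Genes at or above the 40th percentile on at least 3 arrays were tested with limma 3.58.1 in R 4.3.3 (lmFit, eBayes), fitting 4 group means over 14 arrays (10 residual degrees of freedom, prior 4.54). P-values are two-sided, adjusted with the Benjamini-Hochberg method over 15873 genes, and a gene was called at an adjusted p under 0.05. SE values come from this fit and SD values from the samples. The fit was tested on simulated data. An exact permutation test over samples was run for Atg7, Rnf5 and Hopx.

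The comparison, the 39 gene lists and the tests were chosen with earlier results of these data known. The 10 families by symbol were added after values were seen. Named are 7 fixed genes, called genes, the 15 largest differences per direction without overlap (predicted genes, small RNAs and receptor segments left out), up to 4 members per list by p, and genes that a pathway step or family needed, the last chosen after their values were seen. Lists are described by counts and medians only. Alternatives covered the groups fitted, filters, normalization, the variance model, array weights, a block on title numbers, covariates for Y-linked signal and array spread, and leaving out samples. Promoters are from RefSeq (GRCm38.p6).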

Additional observations from a re-analysis of the deposited data

Results flagged for a closer look

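In 18 of 314 groups of 4 arrays examined for a named gene or list mean, 1 array was far from the other 3 by Dixon's criterion, where chance gives about 1 in 20. For single genes these were Rmrp at 7.12, Casp4 at 7.91, Esd at 8.30 and Brk1 at 4.90, all on WT-Low-411. They were also Kctd12 at 6.32 and Tnfaip8l1 at 6.34 on WT-Low-341, Gstm2 at 8.72 and Gstm5 at 8.36 on Atg7KO-Low-353, and Prrg2 at 6.77 and Pnliprp2 at 4.87 on Atg7KO-Low-386.

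For means over lists, WT-Low-411 was far below the other wild-type arrays for selective autophagy receptors (6.22) and ER-associated degradation (7.05). Atg7KO-Low-353 was far below the other knockout arrays for selective autophagy receptors (6.33) and NRF2 targets (7.32). Atg7KO-Low-386 was high for tuft cell markers (5.00) and low for the 2 erythroid genes (3.29), Atg7KO-Low-387 was low for G2 and M phase genes (7.67), and Atg7KO-Low-356 was high for other antioxidant enzymes (7.26). The knockout effect on Gm12292 differed between the gates by -2.33, by the limma test of that difference.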

How the results depend on the processing

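Rnf5 was the 1 gene called under 11 of the 13 alternatives other than leaving out 1 sample, and 0 genes were called with the 8 EGFP low arrays alone (Rnf5 1.72, adjusted p = 0.233 by limma; 882 genes at an unadjusted p under 0.05) or without the 2 arrays of narrowest spread, which are WT-Low-411 and an EGFP high array (Rnf5 1.55, adjusted p = 0.0717 by limma; 1193 genes). Leaving out 1 sample gave 0 to 2 called genes, with Rnf5 at 1.55 to 1.89, Tnfaip8l1 called beside it without WT-Low-341 (0.99) and Tdg-ps2 without WT-Low-409. For the difference between the gates, 2 genes, Gm12292 and Rnf5, were called with the strict filter, with array weights and with the replicate block, and 1 to 4 as samples were left out. The replicate block on title numbers left 1 called gene in EGFP low cells and changed no other call there. Samples that share a number correlated at 0.11, 0.18 and -0.04 in their deviations from the group means. So few correlations cannot decide whether such samples share a mouse, and the numbers were used only as a block in an alternative. Differences near 0 changed sign, and the cause was not tested. Lgr5 was -0.0010 without the 2 narrowest arrays and -0.0010 to 0.47 as samples were left out. Olfm4 was -0.0126 after quantile normalization again, -0.11 after cyclic loess, -0.0682 with array weights, -0.0341 with the array SD as a covariate, -0.16 without the 2 narrowest arrays and -0.16 to 0.16 as samples were left out. Ascl2 was -0.0381 with the Y-linked covariate, -0.0191 with the array SD covariate and -0.0735 to 0.0707 as samples were left out. Cdkn1a was 0.0061 with each array centred on its median, 0.0144 with the Y-linked covariate, and -0.18 to 0.11 as samples were left out. Atg5 (0.07) was -0.0810 with array weights, -0.0615 with the array SD covariate, -0.12 without the 2 narrowest arrays and -0.12 to 0.25 as samples were left out. The number of arrays, and signal near background for genes of low level, limit what could be detected.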
